A study of Mus musculus with 16 samples.

Results

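The 8 fetal growth genes linked to the let-7 microRNAs followed here in the developing mouse epididymis are Hmga2, Hmga1, Lin28a, Lin28b, Igf2bp1, Igf2bp2, Igf2bp3 and Arid3b. The epididymis is the duct that carries sperm away from the testis, and it forms from the Wolffian duct of the embryo. The members were taken by gene symbol, and the group was put together with the stage differences of these arrays already known. Of the 8 genes, 6 were among the 18194 gene symbols of the annotation used, with 19 probe sets out of 45101 on the array, and Hmga1 and Igf2bp2 were not analysed here. A probe set was kept for testing if its signal was at or above the median of its own array on at least 3 of the 15 epididymis arrays. This left 25981 probe sets, 14 of them from Hmga2, Lin28a, Igf2bp1 and Igf2bp3. The 5 probe sets below that level were those of Lin28b and Arid3b and 1 each of Lin28a and Igf2bp3.

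RNA came from whole epididymides of wild-type CD-1 male mice, an outbred stock. Stages were gestational day 12 (gd12), day 14 (gd14), day 16 (gd16), day 18 (gd18) and day 2 after birth (pnd2), which the labels equate with Theiler stages 20, 22, 24, 26 and 27, with 3 arrays for each. The series description gives 1 animal per sample and a different dam for each. The labels of the gd12 and gd14 samples instead give a pool size of 3, and those of gd16, gd18 and pnd2 say not pooled, so the number of animals behind an early array is uncertain and pooling cannot be told apart from the step between gd14 and gd16. A further array held a pool of 8 whole newborns of both sexes at postnatal day 0.5, with no strain given. Levels are in the scanner software's signal units. Changes are differences of log2(signal + 16) with their standard errors (SE) at n = 3 arrays a stage, and folds are these differences turned back to a linear ratio.

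The let-7 family is a group of short RNAs that pair through their seed with messenger RNAs and lower their output. LIN28A and LIN28B are RNA-binding proteins that hold back the making of mature let-7, and let-7 in turn acts on the messengers of LIN28, HMGA2, the IGF2BP proteins and ARID3B. HMGA2 is a chromatin protein of growing embryonic tissue, and the IGF2BP proteins bind, carry and protect messenger RNAs, that of insulin-like growth factor 2 among them. These genes are known for high expression before birth and low expression in most adult tissues.

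The mature sequences show what the let-7 microRNAs share. Of 11 mouse let-7 and miR-98 mature sequences in RefSeq (GRCm38.p6), 10 have the same seed (bases 2 to 8), and let-7j differs from them in it. The capitals mark the seed.
mmu-let-7a-5p: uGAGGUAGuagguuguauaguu
mmu-let-7b-5p: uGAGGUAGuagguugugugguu
mmu-let-7g-5p: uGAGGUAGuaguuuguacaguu
mmu-miR-98-5p: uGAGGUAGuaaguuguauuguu
mmu-let-7j: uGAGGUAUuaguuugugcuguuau

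LIN28 is known to bind the loop of let-7 precursors, where the letters GGAG are part of its binding site. GGAG lay between the 2 arms in 8 of 11 let-7 family hairpins with both arms annotated, and in 52 of all 644 such mouse hairpins (8.07%), the let-7 family included. The Mirlet7g hairpin (GRCm38.p6, chr9:106178840-106178927, plus strand) holds it, in capitals, and the Mirlet7b hairpin (chr15:85707319-85707403, plus strand) does not. A match is a description of the letters. The arrays did not measure let-7 itself.
Mirlet7g: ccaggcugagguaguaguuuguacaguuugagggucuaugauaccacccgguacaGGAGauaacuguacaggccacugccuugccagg
Mirlet7b: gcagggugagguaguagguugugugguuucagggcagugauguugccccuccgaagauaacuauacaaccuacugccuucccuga

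The promoter of Hmga2, the member with the widest range of signal, is shown for its runs of CT repeats. These are the 250 bases before the annotated start in RefSeq (GRCm38.p6, chr10:120476470-120476719, minus strand), with runs of TCTCTC in capitals. On both strands, overlaps counted, TCTCTC had 7 matches here, and 20.2% of 32851 promoter windows of that length hold at least 1. The GC box GGGCGG had 1 match, and 32.7% of windows hold it.
Hmga2 promoter: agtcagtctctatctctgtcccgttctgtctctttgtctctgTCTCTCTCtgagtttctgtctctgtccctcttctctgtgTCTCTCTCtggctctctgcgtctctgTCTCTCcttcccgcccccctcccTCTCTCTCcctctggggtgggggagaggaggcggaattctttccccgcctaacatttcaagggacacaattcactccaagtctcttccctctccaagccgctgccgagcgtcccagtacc

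One array stood apart and enters the pnd2 values. On pnd2 replicate 3 the ratio of 3' to 5' signal was 63.16 for Gapdh and 80.73 for Actb, against 4.33 to 7.18 and 2.4 to 4.14 on the other 14 epididymis arrays. Its median signal was 81.24, against 110.27 to 132.97 on those 14. Member folds at pnd2, correlations and list counts are therefore also given without it.

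Hmga2 fell in each of the last 3 intervals between stages, and Lin28a, Igf2bp3 and 3 of 4 Igf2bp1 probe sets fell over the whole span. The group was chosen on these contrasts, so the counts describe the members and nothing is read from their size. Called means an adjusted p under 0.05 in a limma fit over all kept probe sets. At gd14 against gd12, 3 of the 14 were called, all lower, where 8.72% of all probe sets were called. At gd16 against gd14 it was 2, both of Hmga2, with 0.0616% called overall. At gd18 against gd16 it was 3, again all of Hmga2, with 0.142% called overall. At pnd2 against gd18 it was 2, both of Hmga2, with 0.558% called overall. Over the longer spans 11 were called lower at gd18 against gd12 (16.5% of all called) and 13 at pnd2 against gd12 (21.1% of all called). No member probe set was called higher in any of the 6 comparisons. The median change of the 14 was -1.84 at gd18 against gd12 and -2.45 at pnd2 against gd12, and that of all kept probe sets was 0.04 and -0.14. Lin28a passed the filter only through its gd12 arrays. The filter thus set its part in such a median and the direction of its calls against gd12. Those calls are among the 3, 11 and 13 given above. With pnd2 replicate 3 left out the member counts, in the order above, were 5, 3, 5, 3, 13 and 12 of 14, with 24.2%, 0.731%, 1.02%, 1.78%, 33.8% and 28.4% of 25575 probe sets called, and the member median at pnd2 against gd12 was -2.13.

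**Figure D1:**
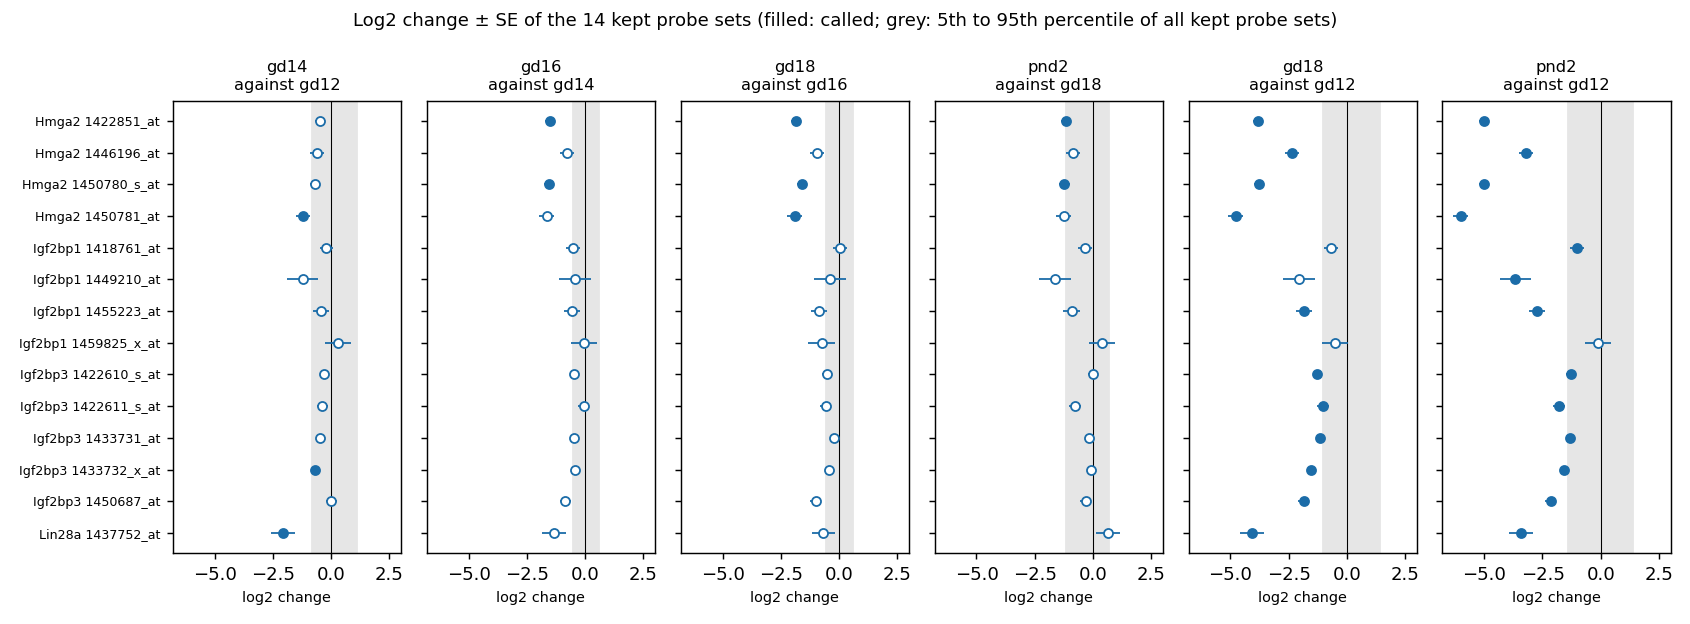
Log2 change of each of the 14 kept member probe sets in 6 stage comparisons, with the SE of the fit as bars, filled points for called changes and a grey band from the 5th to the 95th percentile of all kept probe sets. The called points all lie left of 0, and at pnd2 against gd12 the 3 bright Hmga2 probe sets lie farthest left, at -5.00 and beyond.

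Hmga2 (chr10:120361268-120476469, GRCm38.p6), the chromatin protein, had 4 probe sets, all kept. The brightest, 1422851_at, had signals of 35425, 23184 and 24199 at gd12, of 20977, 22485 and 14909 at gd14, and of 7658, 5748 and 7131 at gd16. It had 2089, 1885 and 1717 at gd18 and 1041, 664 and 825 at pnd2. Each stage lay wholly below the one before it, with gd14 and gd12 closest together. The change was -0.50 ± 0.22 at gd14 against gd12 and was not called. It was -1.49 ± 0.22 at gd16 against gd14, -1.84 ± 0.22 at gd18 against gd16 and -1.17 ± 0.22 at pnd2 against gd18, all called. The signal of this probe set was thus 14.2-fold lower at gd18 than at gd12, and 32.1-fold lower at pnd2 than at gd12. In the fit that leaves out pnd2 replicate 3 the last was 32.0-fold.

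A second Hmga2 probe set, 1450781_at, covered a wider range. It had 22467, 11655 and 13396 at gd12, 9037, 7636 and 4104 at gd14, 2614, 1552 and 2213 at gd16, 426, 551 and 677 at gd18, and 232, 177 and 257 at pnd2. Its stages did not overlap either. It was 27.3-fold lower at gd18 than at gd12 and 64.6-fold lower at pnd2 than at gd12 (log2 changes of -4.77 ± 0.32 and -6.01 ± 0.32), the second 69.6-fold without pnd2 replicate 3. It was already called at gd14 against gd12, at -1.21 ± 0.32. At gd16 against gd14 its change of -1.65 ± 0.32 was not called, although it was larger in size than the called change of 1422851_at. Over the 14 arrays other than pnd2 replicate 3 it was called, as were its pnd2 against gd18 step, at -1.35 ± 0.32, and the gd14 against gd12 step of 1450780_s_at, at -0.68 ± 0.19.

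Probe set 1450780_s_at had 15633, 10646 and 11648 at gd12, 8190.2, 9502 and 6006 at gd14, 3240.3, 2123 and 2783 at gd16, 802, 896 and 985 at gd18, and 408, 318 and 402 at pnd2. Its stages did not overlap, and it was 13.8-fold lower at gd18 and 32-fold lower at pnd2 than at gd12, the second 33.2-fold without pnd2 replicate 3. The fourth, 1446196_at, was dim, at 375 to 628 at gd12, 230.3 to 378 at gd14, 143 to 232 at gd16, 56.4 to 112 at gd18 and 30.8 to 53.3 at pnd2. Its gd12, gd14 and gd16 arrays overlapped from one stage to the next, and it lay below the array median at gd18 and pnd2. No single step of it was called, while gd18 against gd12 (5.07-fold lower) and pnd2 against gd12 (9.19-fold lower, or 10.4-fold without pnd2 replicate 3) were. The ratio of first to last stage thus differed from 9.19-fold to 64.6-fold between probe sets of one gene, and the added constant of 16 understates a fold where the lower signal is near it.

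Leaving out one array often ended the call of a single step. For 1422851_at the gd16 against gd14 call was lost without gd16 replicate 7, 8 or 9 or gd14 replicate 10 or 11, with changes of -1.37 to -1.58. Its pnd2 against gd18 call was lost without any one of the gd18 arrays, gd16 replicate 9, gd14 replicate 10 or 11, or gd12 replicate 15, with changes of -1.10 to -1.24, under median centring, at -0.93, and with no intensity trend in the fit. For 1450780_s_at the gd16 against gd14 call was lost without gd16 replicate 8 or 9 or gd14 replicate 10 or 11, and the gd18 against gd16 call without any one gd18 array or gd16 replicate 7 or 9. Its pnd2 against gd18 call was lost without any one gd18 array, gd16 replicate 9 or gd14 replicate 10 or 11, and under median centring. For 1450781_at the gd14 against gd12 call was lost without gd14 replicate 11 or 12 or gd12 replicate 13 or 15. Its gd18 against gd16 call was lost without any one gd18 array, gd16 replicate 7 or 9, gd14 replicate 11 or gd12 replicate 15, and with no intensity trend. The gd18 against gd16 call of 1422851_at, and both longer spans of all 4 probe sets, were kept with each array left out.

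**Figure D2:**
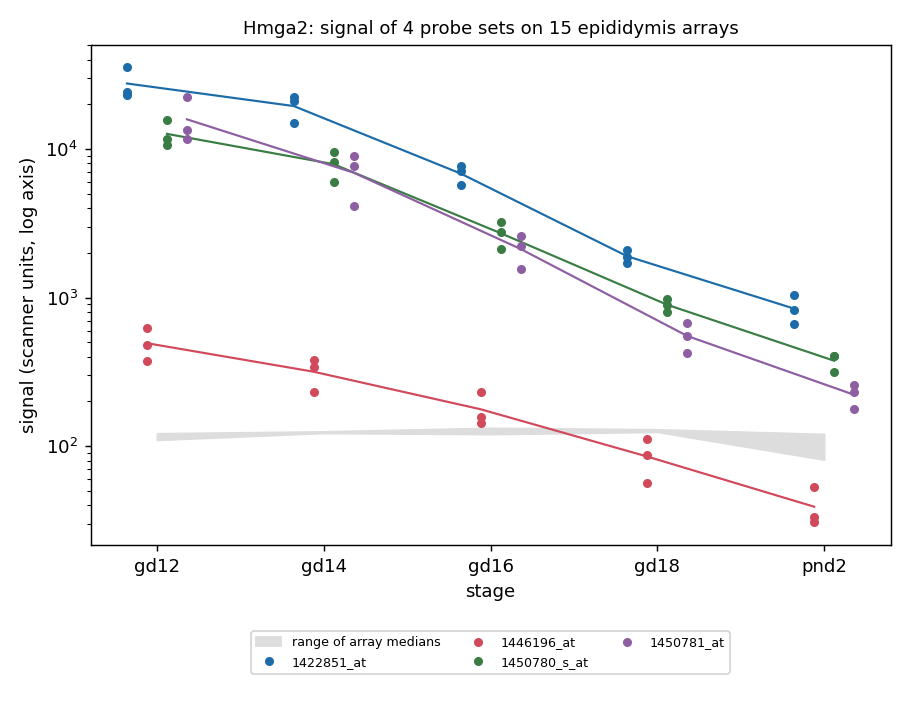
Signal of the 4 Hmga2 probe sets (log axis, scanner units) at 5 stages, with 1 point per array, lines through the arithmetic means of 3 arrays and the range of the 3 array medians of each stage in grey. The 3 bright probe sets step down at each stage and stay above the grey band, and 1446196_at crosses below it between gd16 and gd18.

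The genes whose profile over the 15 arrays was most like that of Hmga2 1422851_at were Zfp521, a zinc finger protein (Pearson r = 0.983), and Hbb-y, an embryonic globin (r = 0.975). Sox11, a transcription factor of embryonic progenitor cells, came next (r = 0.972). St8sia2, which adds polysialic acid to cell surface proteins, had r = 0.965, and Amhr2, the receptor of anti-Müllerian hormone, had r = 0.961. The 15 points share 5 stages, so these values carry the stage differences. Without pnd2 replicate 3 these r were 0.954 to 0.986, and Cbfb and Tns3, both at 0.977, replaced St8sia2 and Amhr2 among the 5 highest. Hbb-y itself had signals of 1.32 to 27.9 at pnd2, against 34996 to 42099 at gd12.

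The summed signal of red blood cell markers was lower at each later stage, and that of cell division genes was highest at gd12. The summed signal of 9 erythroid genes was 42493 to 65334 at gd12, 26809 to 36668 at gd14, 3582 to 9932 at gd16, 920 to 1706 at gd18 and 407 to 488 at pnd2. That of 24 cell division genes was 126363 to 135707 at gd12, 82898 to 84685 at gd14, 81450 to 85072 at gd16, 80522 to 87541 at gd18 and 84963 to 97121 at pnd2. The cell division sums overlapped between gd14, gd16 and gd18, and at pnd2 overlapped those of gd18. Of 24 tested cell division genes, 11, 13 and 17 were called lower at gd14, gd18 and pnd2, each against gd12, and 0 higher. The share of all kept probe sets called was 8.72%, 16.5% and 21.1%. Most of the erythroid sum was Hbb-y at gd12, at 34996 to 42099, and at gd14, at 25264 to 34835. Of 7 erythroid genes tested, 2 were called lower at gd14 against gd12, where 8.72% of all kept probe sets were called. The median change of the 7 was -0.37. In the newborn pool the erythroid sum was 15997, with Hbb-y at 760, and Hmga2 1422851_at had 519, below each pnd2 array. The part of red blood cells and of dividing cells in the Hmga2 result was not tested. In whole organs, fewer cells of a type and less RNA per cell cannot be told apart.

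Of the LIN28 genes, the RNA-binding proteins that block let-7 maturation, Lin28a was seen above the array median at gd12 alone and Lin28b on no array. Lin28a (chr4:134003330-134019196) probe set 1437752_at had signals of 290.0, 399 and 392 at gd12, 94.3, 50.7 and 77.5 at gd14, 2.78, 26.0 and 39.3 at gd16, 12.4, 5.01 and 2.36 at gd18, and 6.6, 10.45 and 53.9 at pnd2. The gd12, gd14 and gd16 arrays lay in separate ranges, and from gd16 on the ranges overlapped. It fell 4.22-fold at gd14 against gd12 (log2 change of -2.08 ± 0.51) and was 16.8-fold lower at gd18 than at gd12. The first of these calls was lost without gd14 replicate 11 or 12 and with a constant of 1 in place of 16. At pnd2 against gd12 it was 10.7-fold lower, or 15.2-fold without pnd2 replicate 3, the pnd2 array with the highest Lin28a signal. All arrays after gd12 were below their median, so these folds depend on the added constant. The filter kept this probe set through gd12 alone, so a call against gd12 could only be lower.

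The second Lin28a probe set, 1421749_at, had 4.07 to 30.6 on the 12 later arrays, against 21.1, 243 and 70.7 at gd12. The 243 of gd12 replicate 14 alone was above the array median, and the probe set was not tested. Lin28b (chr10:45376617-45486314) had 1.03 to 42.2 on the 15 arrays, with 0 of them at or above the median. Of the 2 LIN28 genes these arrays thus gave a signal above the median for Lin28a alone.

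Germ cell markers moved with Lin28a. The summed signal of 14 germ cell genes was 19737 to 29935 at gd12, 2377 to 2805 at gd14, 1343 to 1779 at gd16, 1293 to 1650 at gd18 and 1633 to 1969 at pnd2. Of this sum the germ cell gene Dppa5a alone gave 10013 to 13523.5 at gd12 and 378 to 645 at gd14. At gd18, 2 to 3 of the 14 genes were at or above the array median, against 13 to 14 at gd12. Dazl, an RNA-binding protein of germ cells, had 162, 205 and 239.8 at gd14, against 1216, 2611 and 2086 at gd12. Of the 13 germ cell genes tested, 10 were called lower at gd14 against gd12, where 8.72% of all kept probe sets were called. Among those tested, Pou5f1 reached the array median at gd12 alone. It passed the filter only through the stage where it was high, so a call of it against gd12 could only be lower. Markers of gonad supporting and interstitial cells moved too. Their summed signal over 14 genes was 11811 to 18871 at gd12, 3447 to 4834 at gd14 and 2236 to 6880 at gd16. It was 1699 to 2760 at gd18 and 1324 to 1662 at pnd2, and the gd16 arrays overlapped those of gd14 and gd18. No germ cell, gonad or erythroid marker had a signal of exactly 0 on any array. The same held for Lin28b, which was below the median throughout, so a signal above 0 alone does not show that such cells were present. At gd12, 13 to 14 of the 14 germ cell genes and 10 to 12 of the 14 gonad genes were at or above the array median. The part of these cells in the Lin28a result was not tested.

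Each epididymis array had at least 6 of 11 duct epithelium genes at or above the array median. The same held for at least 9 of 11 mesenchyme and smooth muscle genes. In the newborn pool 7 of 11 and 11 of 11 were, with summed signals of 22970 and 61221. These genes are thus not particular to the epididymis. The summed signal of the epithelium genes was 17366 to 18384 at gd18, against 7106 to 9231 at gd12. That of the mesenchyme and smooth muscle genes was 117663 to 124691 at gd18, against 18546 to 27386 at gd12. Both sums were lowest at gd12, the stage where Hmga2 and Lin28a were highest.

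**Figure D3:**
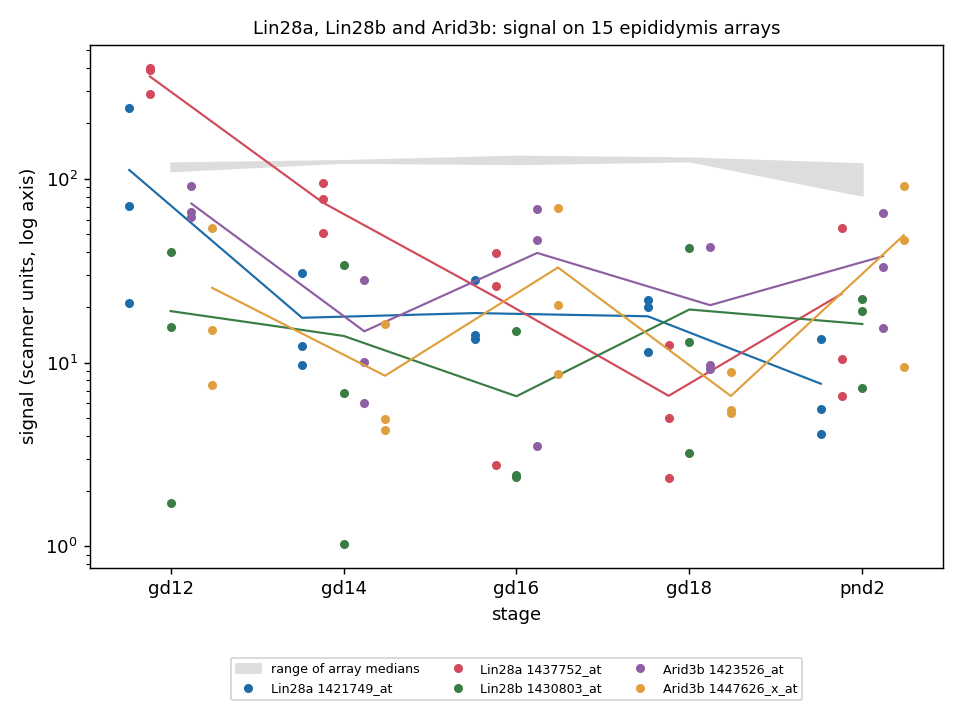
Signal of the Lin28a, Lin28b and Arid3b probe sets (log axis, scanner units) at 5 stages, with 1 point per array, lines through the arithmetic means of 3 arrays and the range of the 3 array medians of each stage in grey. Lin28a 1437752_at is above the grey band at gd12 alone, and Lin28b and Arid3b 1423526_at stay below it.

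The genes most like Lin28a 1437752_at over the 15 arrays were Hs6st2, a heparan sulphate sulphotransferase (r = 0.972), Coprs (r = 0.952) and Aasdhppt (r = 0.951). They were followed by Prmt6, an arginine methyltransferase (r = 0.947), and Tiam1, an activator of the small GTPase Rac (r = 0.945). Lin28a 1437752_at was kept through gd12 alone and lay below the array median on all later arrays. Its r with any gene thus largely sets gd12 against the later stages, and nothing is read from it. With pnd2 replicate 3 left out the 5 highest were Dppa4 (r = 0.989), Hs6st2 (0.973), Acss1 (0.972), Dmrt1 (0.967) and Ddx4 (0.966). Of these, Dppa4 and Ddx4 are known from germ cells, and Dmrt1 is among the gonad supporting and interstitial cell markers used here. With the signal of Igf2bp3 1433732_x_at Lin28a had r = 0.904, or 0.926 without that array. With Igf2bp1 1449210_at it had r = 0.496, or 0.741 without that array, on which Igf2bp1 had the lowest and Lin28a the highest signal of the 3 pnd2 arrays.

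Of the IGF2BP genes, Igf2bp3 (chr6:49085218-49215469) was lower later on in all 5 of its kept probe sets. The brightest, 1433732_x_at, had 5878, 6296 and 4653 at gd12, 3559.7, 3151 and 3758 at gd14, 2792, 2631 and 2379 at gd16, 2080.0, 1786 and 1933 at gd18, and 1809, 1605 and 2114 at pnd2. Its stages separated up to gd18, and the pnd2 arrays overlapped those of gd18. It fell by 0.67 ± 0.16 on the log2 scale at gd14 against gd12, the only single step of Igf2bp3 that was called with all arrays. Over the 14 arrays other than pnd2 replicate 3 1433731_at was also called at gd14 against gd12 (-0.47 ± 0.12), and 1422610_s_at (-0.53 ± 0.11) and 1450687_at (-0.99 ± 0.20) at gd18 against gd16. The call of 1433732_x_at was lost without gd14 replicate 10 or 11 or gd12 replicate 13 or 14, and under median centring. At gd18 it was 2.87-fold lower than at gd12. Probe sets ending in _x_at or _s_at can share probes with related transcripts, so their signal need not come from 1 gene.

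A second Igf2bp3 probe set, with neither ending, 1433731_at, had 3875, 3611 and 3250.1 at gd12, 2555, 2401 and 2793 at gd14, 1995, 1701 and 1904 at gd16, 1778, 1447 and 1559 at gd18, and 1362, 1407 and 1458 at pnd2. It showed the same order, with overlap from gd16 on, and was 2.23-fold lower at gd18 and 2.52-fold lower at pnd2 than at gd12. Probe set 1450687_at took another course. It had 533, 399 and 459 at gd12, 460.0, 504 and 431 at gd14, 253, 246 and 248 at gd16, 142, 129 and 86.8 at gd18, and 123, 90.7 and 68.0 at pnd2. The gd14 and gd12 arrays overlapped, gd14, gd16 and gd18 lay in separate ranges, and pnd2 overlapped gd18. Over the 5 kept probe sets the signal was 2.02- to 3.58-fold lower at gd18, and 2.43- to 4.43-fold lower at pnd2, than at gd12, and all of these were called. With pnd2 replicate 3 left out the range at pnd2 was 2.56- to 3.91-fold. The call of 1422611_s_at at gd18 against gd12 was lost without gd18 replicate 5 or gd12 replicate 13. The sixth, 1453957_a_at, had 3.65 to 82.6 and was above the median on no array.

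Igf2bp1 (chr11:95957163-96005944) had 4 kept probe sets that disagreed. For 1449210_at the signals were 1229.9, 1234 and 1259 at gd12, 547, 735 and 355 at gd14, 373, 628 and 238 at gd16, 105, 403 and 540.0 at gd18, and 171, 175 and 10.96 at pnd2. The gd12 arrays were close together and above all the others, and gd14, gd16 and gd18 overlapped. It was 12.7-fold lower at pnd2 than at gd12 (log2 change of -3.67 ± 0.68), or 6.65-fold without pnd2 replicate 3. At gd18 against gd12 its change of -2.05 ± 0.68 was not called with that array and was called without it, at an SE of 0.44, as was that of 1418761_at, at -0.68 ± 0.25.

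For 1455223_at the signals were 904, 648 and 846 at gd12, 491, 673 and 589.5 at gd14, 342, 360.2 and 484 at gd16, 154, 309.8 and 195 at gd18, and 158, 140.4 and 48.0 at pnd2. Its gd14 arrays overlapped those of gd12, and its pnd2 arrays those of gd18. It was 3.56-fold lower at gd18 and 6.72-fold lower at pnd2 than at gd12, the second 4.9-fold without pnd2 replicate 3. Probe set 1418761_at spanned 66.8 to 261 on the 15 arrays, and its call at pnd2 against gd12 (2.03-fold lower) was lost without pnd2 replicate 3, at 1.67-fold. It was also lost without gd12 replicate 14 or 15, and with no filter on low signals. Probe set 1459825_x_at had 133 to 737 at pnd2, against 157 to 709.6 at gd12, and was called in no comparison.

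**Figure D4:**
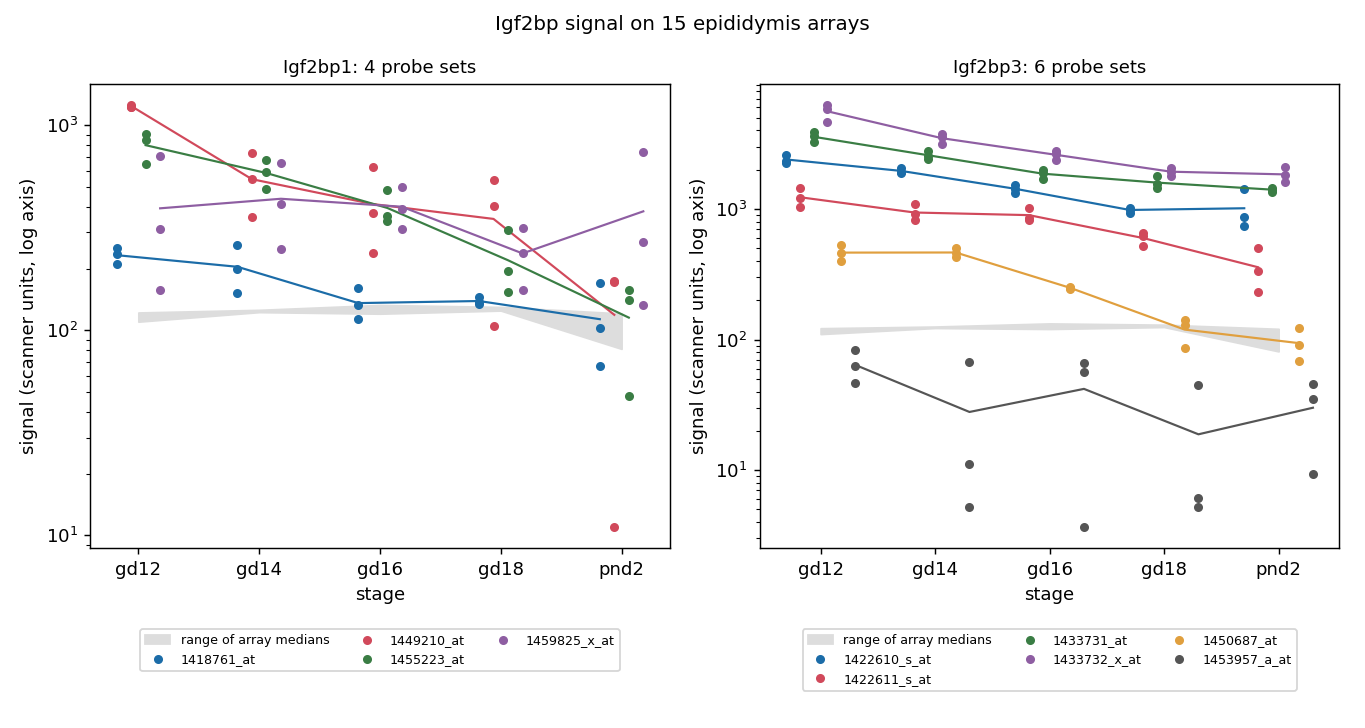
Signal of the Igf2bp1 (left) and Igf2bp3 (right) probe sets (log axis, scanner units) at 5 stages, with 1 point per array, lines through the arithmetic means of 3 arrays and the range of the 3 array medians of each stage in grey. Igf2bp3 1433731_at and 1433732_x_at flatten after gd18, and Igf2bp1 1459825_x_at overlaps between gd12 and pnd2.

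The genes most like Igf2bp3 1433732_x_at were Rps4l, a ribosomal protein gene (r = 0.956), Plxnc1, a semaphorin receptor (r = 0.955), and Dazl (r = 0.948). Prmt6 (r = 0.947) and Cul4b, a ubiquitin ligase scaffold (r = 0.945), followed. Those most like Igf2bp1 1449210_at were Itpk1, an inositol phosphate kinase (r = 0.952), Plvap, an endothelial protein (r = 0.948), and the transcriptional corepressor Cbfa2t2 (r = 0.942). Kdm7a, a histone demethylase, had r = 0.934 and Zfp217 had r = 0.926. Without pnd2 replicate 3 the r of these genes were 0.943 to 0.964 for Igf2bp3 and 0.857 to 0.905 for Igf2bp1. Then 2 of the 5 named genes stayed among the 5 highest for Igf2bp3 and 2 of 5 for Igf2bp1. With the brightest probe set of each member, Hmga2 and Igf2bp3 had r = 0.906, Hmga2 and Igf2bp1 0.767, Hmga2 and Lin28a 0.749, and Igf2bp1 and Igf2bp3 0.678. Without that array they were 0.920, 0.765, 0.823 and 0.796. Germ cell marker sums, given above, were highest at gd12 as Igf2bp3 was, and their part was not tested.

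Arid3b (chr9:57790353-57836847), a DNA-binding protein and let-7 target, was not above the array median in any stage as a group. Probe set 1423526_at had 3.51 to 91.6, with 0 arrays at or above the median, and 1447626_x_at had 4.27 to 91.8, with pnd2 replicate 3 alone above it. Neither was tested, and a level below the array median does not show that the gene was off.

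Other let-7 targets were called in both directions. Of 33 genes tested from a list of 40, 7 were called higher and 10 lower at gd18 against gd12, with a median change of -0.14. That was 51.5% of the list, where 16.5% of all kept probe sets were called. At pnd2 against gd12 it was 5 and 12 (51.5%, against 21.1% overall), and at gd14 against gd12 it was 6 and 6 (36.4%, against 8.72% overall). Over the 14 arrays other than pnd2 replicate 3 it was 11 and 13 at gd18 against gd12, where 33.8% of all were called, 8 and 13 at pnd2 against gd12 (28.4% of all), and 10 and 10 at gd14 against gd12 (24.2% of all). The lower calls include Trim71 and Acvr1c, which reached the array median at gd12 alone and so passed the filter only through the stage where they were high. Trim71, an RNA-binding ubiquitin ligase of early embryos, had signals of 55.4, 5.93 and 8.64 at gd18, against 592, 727 and 569 at gd12, with no overlap. All 12 later arrays were between 5.93 and 107.85, so its fitted folds of 19 at gd18 and 6.87 at gd14, both against gd12, depend on the added constant. Igdcc3, a cell surface protein of the immunoglobulin family, had 70.8, 181 and 103 at gd18 and 1104, 912 and 698 at gd12, a fall of 7.15-fold (adjusted p = 1.05e-05, limma). Acvr1c, a receptor for activin-related ligands, had 1.85 to 53.7 on the 12 later arrays, against 176.08, 267.17 and 251.8 at gd12, and its fitted fold of 5.97 at gd18 against gd12 depends on the constant too.

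The let-7 targets that rose at gd18 against gd12 included the collagen genes Col1a2 (3.02-fold, adjusted p = 5.95e-07, limma) and Col3a1 (2.52-fold, adjusted p = 4.59e-07, limma). Cdk6, a kinase of the cell cycle, rose 2.71-fold (adjusted p = 0.00142, limma). The collagens are also made by the mesenchyme whose marker sum is given above, and the part of that tissue was not tested.

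The genes that make and use let-7 were next. Of 28 let-7 processing and LIN28 partner genes, all tested, 1 was called higher and 1 lower at gd18 against gd12 (7.14%, where 16.5% of all kept probe sets were called). At pnd2 against gd12 it was 1 and 4 (17.9%, against 21.1% overall). With pnd2 replicate 3 left out it was 3 and 7 at gd18 against gd12, where 33.8% of all were called. At pnd2 against gd12 it was then 1 and 4, where 28.4% of all were called. With all arrays and 1 probe set a gene, 2802 and 3362 of 12239 were called at gd18 and pnd2, each against gd12. Dicer1, which cuts the precursor hairpins, had 756, 815 and 887 at gd18, against 1254, 1130.5 and 1569 at gd12, a change of -0.66 ± 0.19 (adjusted p = 0.0268, limma). Syncrip, an RNA-binding protein, was 1.59-fold higher (adjusted p = 0.00512, limma). At pnd2 against gd12 Msi1, an RNA-binding protein that works with LIN28 on let-7, had 187, 299 and 136 at pnd2, against 707, 739 and 457 at gd12, which was 2.98-fold lower (adjusted p = 0.000583, limma), or 2.52-fold without pnd2 replicate 3.

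Of 22 tested genes linked to HMGA and IGF2BP proteins, 4 were called higher and 1 lower at gd18 against gd12 (22.7%). That was near the 16.5% of all kept probe sets and the 2802 of 12239 with 1 probe set a gene. In the fit that leaves out pnd2 replicate 3, 6 of the list were called higher and 7 lower, where 33.8% of all were called. Cd44, a hyaluronan receptor whose messenger IGF2BP proteins bind in human cells, was 12.1-fold higher (log2 change of 3.60 ± 0.23, adjusted p = 1.35e-07, limma), and Snai2, a transcription factor of migrating mesenchyme, was 2.47-fold lower (adjusted p = 0.00332, limma). Igf2, the growth factor after which the IGF2BP proteins are named, was singled out after its values were seen. It had 19484, 18605 and 19256 at gd18, against 16722, 8626 and 11964 at gd12, a change of 0.67 that was not called. At pnd2 it had 13248, 13247 and 1313, the last on pnd2 replicate 3.

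Of 25 other tested genes of fetal growth, 5 were called higher and 1 lower at gd18 against gd12 (24%). Of these 25, Mycl is also in the let-7 target list. Of all kept probe sets 16.5% were called, and with 1 probe set a gene 2802 of 12239. Without pnd2 replicate 3, 7 of the list were called higher and 5 lower, where 33.8% of all were called. Dlk1, an imprinted regulator of progenitor cells, was 9.12-fold higher (adjusted p = 8.42e-06, limma), and Igf1, a growth factor, was 4.86-fold higher (adjusted p = 4.46e-05, limma). Sox11 had 1088, 1419 and 1347 at gd18, against 5386, 4084 and 3633 at gd12, and was 3.35-fold lower (adjusted p = 9.95e-05, limma). At pnd2 against gd12 Mest, an imprinted growth gene, was 2.72-fold lower (adjusted p = 0.00792, limma), or 1.81-fold without pnd2 replicate 3. None of the genes in these 4 lists was called by limma at gd16 against gd14 or at pnd2 against gd18, and at gd18 against gd16 the only one was Cd44. With pnd2 replicate 3 left out 3 were called at gd16 against gd14 and 3 at pnd2 against gd18. Of all probe sets in that fit 0.731% and 1.78% were called. Over all kept probe sets 1344 had an unadjusted p under 0.05 at gd16 against gd14, and 5338 at pnd2 against gd18.

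**Figure D5:**
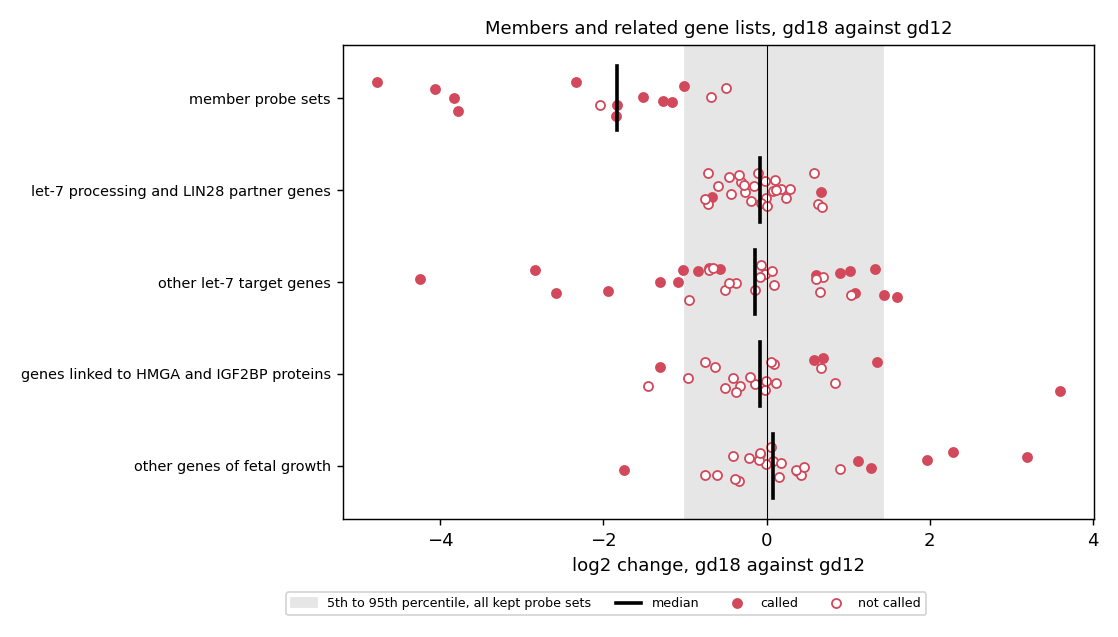
Log2 change at gd18 against gd12 of the 14 member probe sets and of 4 gene lists (1 probe set a gene), with filled points for called changes, a bar at each median and a grey band from the 5th to the 95th percentile of all kept probe sets. The member median is at -1.84 and those of the lists lie between -0.14 and 0.08.

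In the pool of whole newborns, a single array with no test, Hmga2 1450781_at had a signal of 231, within the range of the pnd2 epididymis arrays. Lin28a 1437752_at had 6.3, just below the lowest of them. Igf2bp1 1449210_at had 41.5 there, between the lowest and the other pnd2 arrays. Igf2bp3 1450687_at had 369.9, above the gd16 arrays of the epididymis and below those of gd14, and Igf2bp3 1433732_x_at had 2190.3, above the gd18 and pnd2 arrays.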

How the data were processed

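The values the authors deposited are linear intensity (signal) units, 1 for each probe set on each array, made with GCOS, the Affymetrix scanner software, per the submitters' processing notes. Settings, version and detection calls are not given in the sources that were used, and the probe table gives no position within a gene. Per the labels, RNA was amplified in 2 rounds and labelled with biotin, and its isolation protocol is named for whole testes. A trimmed mean of 499.9 to 500 on each of the 16 arrays shows a single scaling factor per array. A change in many bright transcripts then shifts all others of that array.

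Here log2(signal + 16) was fitted with limma 3.58.1 in R 4.3.3, with 1 mean for each of 5 stages over the 15 epididymis arrays and an intensity trend. Benjamini-Hochberg adjustment ran over all 25981 kept probe sets. The fit was tested on simulated data. The number of arrays, 3 a stage, limits the precision.

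The members and the 10 gene lists were chosen with earlier results of these data known, and member changes are given with no p. For a gene of a list the brightest kept probe set stood in, and marker sums by the brightest annotated one. Genes named are all member probe sets. From each list and comparison they are up to 3 called genes with the largest rise and 3 with the largest fall. For each member's brightest kept probe set they are the 5 genes with the highest correlation, genes with clone names left out. Symbols came from the platform annotation, in which 34945 probe sets had 1 symbol. The alternatives tried were median centring and quantile normalization of the arrays, an added constant of 1 or 64, no filter, 1 probe set a gene, no trend, and each array left out. List counts and correlations without pnd2 replicate 3 were added after the values were seen.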

Additional observations from a re-analysis of the deposited data

How the results depend on the processing

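The members gave 34 called changes, and over 751 pairs of a change and an alternative the call was kept in 694 and lost in 57, with 0 reversed. Of the 34, 23 were called under all alternatives run for them. Member counts (3, 2, 3, 2, 11 and 13, in the order gd14 against gd12, gd16 against gd14, gd18 against gd16, pnd2 against gd18, gd18 against gd12 and pnd2 against gd12) ran over 0 to 5, 0 to 3, 1 to 5, 0 to 3, 9 to 13 and 11 to 13 with 1 array left out. With 1 probe set a gene, which leaves 4 member probe sets, the last 5 counts were 1, 1, 1, 4 and 4. At pnd2 against gd18 the count was 0 under median centring and 1 with no trend, and at gd14 against gd12 it was 5 without the 3 arrays pnd2 replicate 3, gd16 replicate 9 and gd14 replicate 10, an alternative chosen after seeing the data. The causes were not tested. Changed probe sets over the whole array (2265, 16, 37, 145, 4295 and 5476, in the same order) ran over 1250 to 6183, 6 to 187, 7 to 260, 3 to 816, 2798 to 8640 and 3667 to 7267 with 1 array left out, and the highest count came without pnd2 replicate 3 except at pnd2 against gd18, where it came without pnd2 replicate 2. At gd16 against gd14 there were 28 with quantile normalization, 27 with no trend and 35 without the 3 arrays. At gd18 against gd16 there were 56 with quantile normalization and 18 with a constant of 1. At pnd2 against gd18 there were 71 with median centring, 236 with a constant of 64, 65 with no filter, 73 with 1 probe set a gene and 219 without the 3 arrays. Without the 3 arrays there were 4474 at gd14 against gd12 and 8087 at gd18 against gd12, and with 1 probe set a gene 2802 at gd18 against gd12 and 3362 at pnd2 against gd12. Calls higher and lower at pnd2 against gd18 were 44 and 101, against 88 and 125 with quantile normalization and 42 and 29 with median centring, which put the median change of all probe sets at 0.09 and not -0.16. At gd16 against gd14 they were 8 and 8, against 19 and 9 with quantile normalization, and at pnd2 against gd12 2665 and 2811, against 3077 and 2162 with median centring. No paired analysis was possible because replicate numbers are not shared between stages. Signals near the array median or the added constant, as for Lin28a after gd12, limit what a fold can show.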
